A study of Mus musculus with 24 samples.

Results

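The cytosolic ribosomal protein genes were taken by name: protein-coding mouse symbols that begin with Rpl or Rps and a digit, plus Rplp0, Rplp1 and Rplp2, without names that end in -ps and without the Rps6k kinases. Among the p16-3MR genes, 96 protein-coding symbols (GENCODE M21) had such a start, of which 4 ended in -ps and 9 were kinases. The other 83, of 21755 genes in the table, were the members, 50 of the large and 33 of the small ribosomal subunit by name. They lay on 19 chromosomes, and 4 were X-linked. A mean of at least 10 counts over 12 livers was reached by 82 of the 83. The wild-type table gives gene labels from which 9 letters are missing, so that Rpl12 and Rps12 both read as Rp12, and its members are the 28 genes, of 12643, whose shortened label fits a single symbol (20 large, 8 small). The other 55 members share 29 ambiguous labels there and were not analysed in wild-type livers. One member, Rps19bp1, meets the rule by its name but encodes a protein that binds Rps19 and is no ribosomal protein.

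The samples are livers of 24 mice, 3 in each group of genotype, sex and treatment, measured by Smart-3SEQ, a method that reads messages near their 3′ end. The p16-3MR mice carry a transgene in which the p16 promoter drives a fusion protein with herpes simplex thymidine kinase, so that ganciclovir (GCV) becomes toxic in cells that express p16, a marker of senescent cells. Both sexes were injected on 5 days in a row each month, from an age of 16 to 18 months. The injections held GCV (150 mg/kg in the labels, another dose in the methods text) or only the vehicle (VEH), water at pH 11. Wild-type mice, which lack the transgene, began at 6 months and were sampled after 3 months. The p16-3MR livers make up batch 1 and the wild-type livers batch 2, so that genotype, batch, age at start and length of treatment cannot be told apart, and each genotype was analysed on its own. All livers are whole tissue, in which fewer cells of a type and less RNA per cell cannot be told apart. Of 10 hepatocyte markers, 9 were in the p16-3MR table, and their summed level was 29900 CPM (counts of a gene scaled to a common library size) or more in every p16-3MR liver.

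A ribosome reads messenger RNA on its small subunit and joins amino acids on its large subunit. Each subunit is ribosomal RNA clad in many proteins, most of them small, basic and needed in equal amounts. In liver, which makes most plasma proteins, their messages are abundant. These messages share a 5′ terminal oligopyrimidine (TOP) start, a C followed by a run of C and T bases, through which the kinase complex mTORC1 and the binding protein Larp1 control their translation and storage. Many also have processed pseudogenes, copies of the message in the genome, with which short 3′ reads can be shared.

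The start sites of 11 members described below are shown to let their runs of C and T be compared with their values. Each line is a window of 50 bases, the last 30 before and the first 20 after the annotated start, from RefSeq promoters on GRCm38.p6, written 5′ to 3′ on the gene's strand. Capitals mark the longest run of C and T that reaches within 10 bases of the start, which need not be a TOP start. The run of Rps15a ends at position -6, before the annotated start. Those of Rps12, Rpl39 and Rpl36a begin at positions 9, 7 and 10, after it.
Rpl27a (chr7:109519165-109519214, plus strand): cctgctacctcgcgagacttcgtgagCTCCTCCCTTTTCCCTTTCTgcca
Rpl14 (chr9:120571487-120571536, plus strand): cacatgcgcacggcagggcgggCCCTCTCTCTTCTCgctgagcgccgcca
Rps18 (chr17:33955646-33955695, minus strand): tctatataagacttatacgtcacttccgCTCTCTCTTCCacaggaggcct
Rps12 (chr10:23787190-23787239, minus strand): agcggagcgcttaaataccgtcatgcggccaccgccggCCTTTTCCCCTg
Rpl12 (chr2:32961682-32961731, plus strand): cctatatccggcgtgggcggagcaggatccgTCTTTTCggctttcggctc
Rpl22l1 (chr3:28805478-28805527, plus strand): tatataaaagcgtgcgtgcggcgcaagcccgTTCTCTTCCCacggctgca
Rps15a (chr7:118116128-118116177, minus strand): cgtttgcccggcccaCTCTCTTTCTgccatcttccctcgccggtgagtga
Rps28 (chr17:33824543-33824592, minus strand): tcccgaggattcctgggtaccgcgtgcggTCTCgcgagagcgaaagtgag
Rpl39 (chrX:37085203-37085252, minus strand): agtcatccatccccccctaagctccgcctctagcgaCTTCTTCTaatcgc
Rpl36a (chrX:134585624-134585673, plus strand): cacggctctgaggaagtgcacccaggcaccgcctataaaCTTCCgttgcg
Rplp2 (chr7:141447621-141447670, plus strand): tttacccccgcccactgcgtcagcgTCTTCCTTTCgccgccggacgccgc

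The run was 20 bases long in Rpl27a, 14 in Rpl14, 11 in Rps18 and Rps12 and 4 in Rps28, whose log2 fold changes in females on GCV were 1.68, 1.53, 1.53, 1.76 and 1.28. These members are shown for their values. Long runs also occur beside female changes at or below the members' median of 0.62. The run was 21 bases in Rpl7a, 20 in Rpl34, 18 in Rpl35, 17 in Rpl15 and 14 in Rpl4. Their log2 fold changes in females were 0.62, 0.26, -0.23, 0.31 and 0.35. Without liver 33, a library described below, these 5 values were 0.39, 0.16, 0.22, 0.20 and 0.41, and the members' median was 0.40. A promoter entry was matched for 63 of the 83 members (75.9%), too few for a comparison over the list, and the shares here are a description. A run of at least 8 was present in 29 of the 63 (46.0%) and in 15.8% of all 27025 symbols with a promoter, and a run of at least 10 in 36.5% and 8.14%. In the whole 300-base promoters, on either strand, the letters CTTCCGG occurred in 38.1% of matched members and 9.93% of all symbols. TATAA occurred in 27% and 28%. The members had a median longest run of 7 bases, and all symbols one of 4.

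The p16-3MR libraries held 5005760 to 7160172 counts and the wild-type libraries 3084517 to 5667904. A member with no count in a p16-3MR liver could still be present at up to 0.293 to 0.578 CPM on the TMM scale used below (3 counts), or up to 2.32 CPM in liver 33, a floor that covers counting error only. Liver 33, a GCV female, stood apart: mitochondrially encoded genes took 64.0% of its counts, against 12.3 to 22.4% in the other 11 p16-3MR livers, its 10 largest genes took 73.7%, and its scaling factor from the trimmed mean of M values (TMM) was 0.259. Livers 32 (GCV male) and 24 (VEH male) had the next most extreme factors, 1.80 and 1.64. In those livers the hepatocyte markers summed to 29900 and 46710 CPM, against 93997 to 165588 CPM in the other 10. Their 10 Kupffer cell and macrophage markers (Clec4f, Vsig4, Cd5l and others) summed to 5184 and 2818 CPM. The part of these differences in the results below was not tested. Where leaving out liver 33 in females or liver 32 in males moved the log2 fold change of a gene named below by over 1.5 times or turned its sign, the value without it follows. The spread between livers of a group was 55.8% (biological coefficient of variation) in p16-3MR and 16.6% in wild-type mice.

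The members took 1.5%, 0.645% and 1.40% of all counts in the GCV females 31, 33 and 35, and 1.05%, 1.22% and 1.47% in the VEH females 27, 28 and 29. The 95% Wilson interval of the lowest share, in liver 33, was 0.638 to 0.652% and covers counting error only. In males they took 2.04%, 3.92% and 1.60% on GCV (livers 30, 32 and 34) and 2.30%, 1.49% and 1.18% on VEH (livers 24, 25 and 26). The groups overlapped in both sexes by this measure. Of the counts outside the mitochondrial genes, the members took 1.78%, 1.80% and 1.81% in GCV females and 1.29%, 1.40% and 1.88% in VEH females, so that one VEH female lay above all GCV females. TMM scaling, which sets the bulk of genes equal between livers, was used for all levels that follow.

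On the TMM scale most members were high in the same livers and low in the same livers. Each member's log2 CPM was centred on its mean over the 12 livers. The average of these centred values over the members was 0.25, 0.46 and -0.07 in GCV females 31, 33 and 35 and -0.55, -0.40 and -0.16 in VEH females 27, 28 and 29. It was 0.21, 0.51 and 0.21 in GCV males 30, 32 and 34 and -0.09, -0.0044 and -0.37 in VEH males 24, 25 and 26. Every GCV liver therefore lay above every VEH liver of its sex. As groups, GCV females were at 0.21 ± 0.27 (SD, n = 3), VEH females at -0.37 ± 0.20, GCV males at 0.31 ± 0.17 and VEH males at -0.15 ± 0.19. The highest of the 12 values fell in liver 33 for 39 members, in liver 32 for 31 and in liver 31 for 9. The lowest fell in liver 27 for 48 members and in liver 28 for 13, both VEH females.

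**Figure D1:**
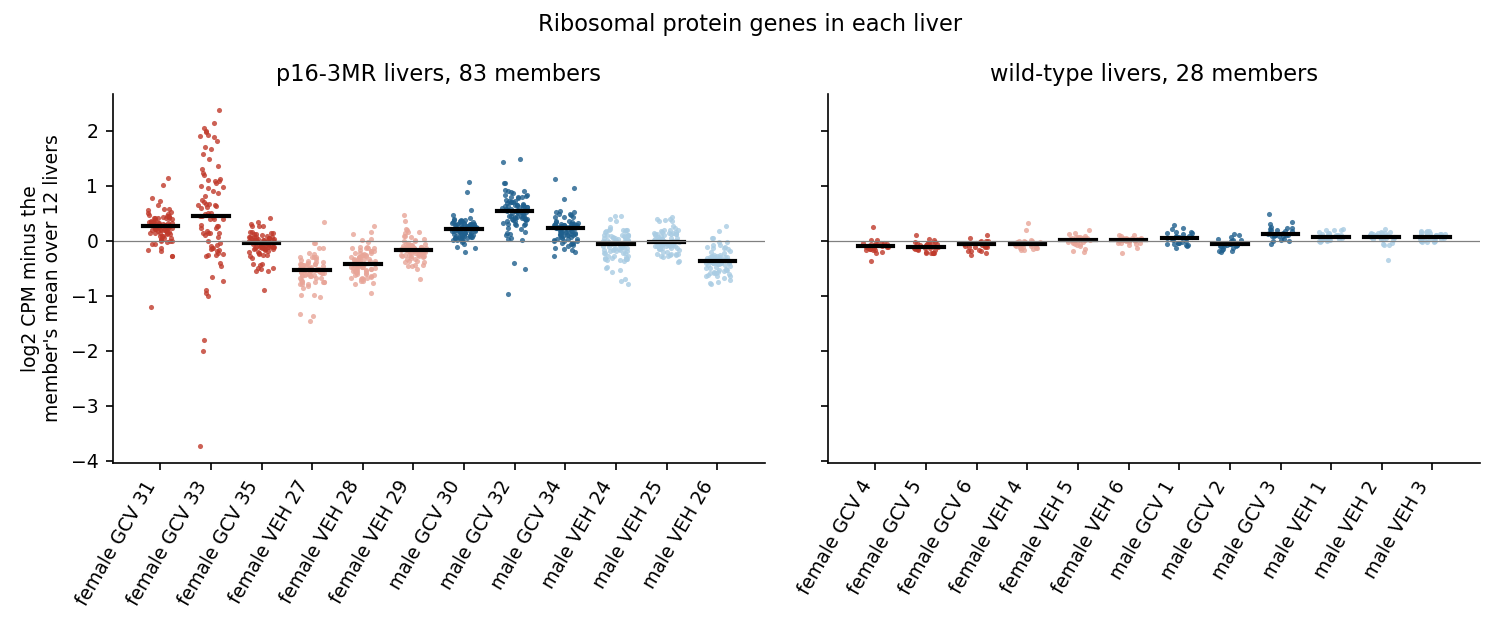
Log2 CPM (TMM) of each member minus its mean over the 12 livers of its table, for 83 members in p16-3MR livers (left) and 28 in wild-type livers (right). Each point is a member and each bar the liver's median. Each p16-3MR GCV liver has a higher median than the VEH livers of the same sex, liver 33 has the widest spread, and the wild-type livers lie close to 0.

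In p16-3MR females, 73 of the 83 members had a higher estimate on GCV than on VEH, and none passed the test. The median log2 fold change was 0.62, against 0.00 over all genes, with 43 of 50 large subunit members (median 0.62) and 30 of 33 small subunit members (median 0.62) above 0. The edgeR quasi-likelihood test called 0 of 83 members at an adjusted p under 0.05, as it called 0% of all genes, and the lowest adjusted p of a member was 0.646. An unadjusted p under 0.05 with a higher level was found for 28 members (33.7% of them), and for 5.05% of all genes. None of the members had one with a lower level. All 3 GCV livers lay above all 3 VEH livers for 47 members, and for 5.91% of all genes (8.82% of the genes with a mean of at least 10 counts), while the reverse order held for no member. DESeq2, another count test, called 0.395% of all genes and 3 members: Rpl27a (log2 fold change 1.74, adjusted p = 0.0324), Rps16 (0.90, adjusted p = 0.0152) and Rps28 (1.33, adjusted p = 0.0399). limma-voom with sample weights called none of the members and 7 of all genes.

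The size of this difference moved with liver 33. Without it, 79 members had a higher estimate and the median was 0.40. An unadjusted p under 0.05 with a higher level was then found for 7 members and for 530 of all 21755 genes. Leaving out VEH female 28 or 27 instead gave 9 and 12 such members (631 and 592 of all genes). Leaving out any other female gave 20 to 37. The 6 members whose estimate turned from lower to higher without liver 33 were Rpl7l1 (-0.26 to 0.10), Rpl10 (-0.24 to 0.10), Rpl35 (-0.23 to 0.22), Rps9 (-0.17 to 0.00), Rpl9 (-0.11 to 0.07) and Rps4x (-0.02 to 0.18). All remaining GCV females lay above all VEH females for 55 members, where 12.9% of all genes did so. Within liver 33 the members split: 50 lay above all 5 other females, 25 lay among them, and 8 lay below all of them (Rpl3, Rpl9, Rpl10, Rpl35, Rpl7l1, Rps4x, Rps9 and Rps14). The interquartile range of the centred values was 1.16 there and 0.17 to 0.32 in the other livers. Scaling by library size alone moved the median of all genes to -0.58 and that of the members to -0.14, or 0.44 above all genes, and left 30 members with a higher estimate.

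Markers of several other cell types had lower estimates on GCV in the same females, with none called. This was so for 10 of 10 macrophage, 8 of 9 T and NK cell, 5 of 6 B and plasma cell, 5 of 6 endothelial, 6 of 6 stellate cell and 4 of 4 proliferation markers, and without liver 33 for 10, 9, 5, 6, 5 and 4 of them. Their median log2 fold changes were -1.42, -1.94, -2.20, -0.77, -0.56 and -1.21, and an unadjusted p under 0.05 was found for 1, 3, 3, 2, 0 and 0 of them. The T and NK cell markers summed to 3.66 to 7.72 CPM in GCV females and 6.70 to 68.5 CPM in VEH females, with Cd8a at 0 in 2 of the 12 livers, and the B and plasma cell markers to 2.31 to 17.4 and 13.4 to 61.7 CPM. The stellate cell sums did not overlap, at 253 to 329 CPM on GCV and 333 to 426 CPM on VEH, whereas the endothelial sums (74.1 to 133 and 90.0 to 187 CPM) and the proliferation sums (16.0 to 125 and 24.7 to 123 CPM) did. The part of these markers in the members' values was not tested.

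Among the 8 members with the largest female difference apart from Rpl3l, Rpl12 came first. It is a large subunit protein at the base of the stalk that recruits translation factors. Rpl12 was at 54.4, 241 and 42.6 CPM in GCV females 31, 33 and 35, and at 16.6, 23.9 and 41.9 CPM in VEH females 27, 28 and 29. The groups did not overlap, although GCV liver 35 and VEH liver 29 were nearly level, and the highest value was liver 33. Its log2 fold change was 2.02 ± 0.61 (here and after every log2 fold change, ± gives the standard error; adjusted p = 0.646) and 0.75 without liver 33. Rpl22l1, a paralog that can take the place of Rpl22, was at 54.8, 255 and 55.0 CPM on GCV and at 22.7, 35.6 and 43.5 CPM on VEH, with no overlap. Its log2 fold change of 1.83 ± 0.57 was 0.63 without liver 33. Rps12, of the small subunit, was at 95.6, 294 and 79.3 CPM on GCV and 32.4, 54.0 and 51.5 CPM on VEH. Its log2 fold change was 1.76 ± 0.48, and 0.86 without liver 33.

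Rpl27a, with the longest run of C and T shown above, was at 471, 1268 and 353 CPM in GCV females and at 194, 206 and 254 CPM in VEH females. Each GCV liver was above each VEH liver also without liver 33, and the log2 fold change was 1.68 ± 0.50, and 0.85 without that liver. Rpl14 was at 219, 776 and 176 CPM on GCV and 136, 125 and 143 CPM on VEH. Rps18, of the head of the small subunit, was at 199, 751 and 151 CPM on GCV and 113, 121 and 147 CPM on VEH. In both genes the groups were apart by a narrow gap, and the log2 fold changes of 1.53 ± 0.52 and 1.53 ± 0.54 became 0.49 and 0.40 without liver 33. Rpl11, which with Rpl5 and the small RNA of the large subunit can hold the p53 ligase Mdm2, was at 169, 498 and 139 CPM on GCV and 77.5, 89.3 and 113 CPM on VEH. Its log2 fold change was 1.52 ± 0.49, and 0.66 without liver 33. Rpl13a, which in inflammation can leave the ribosome to silence messages, was at 618, 1749 and 326 CPM on GCV and 255, 317 and 385 CPM on VEH. Its groups overlapped, since GCV liver 35 lay below VEH liver 29, and the log2 fold change of 1.49 was 0.50 without liver 33.

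**Figure D2:**
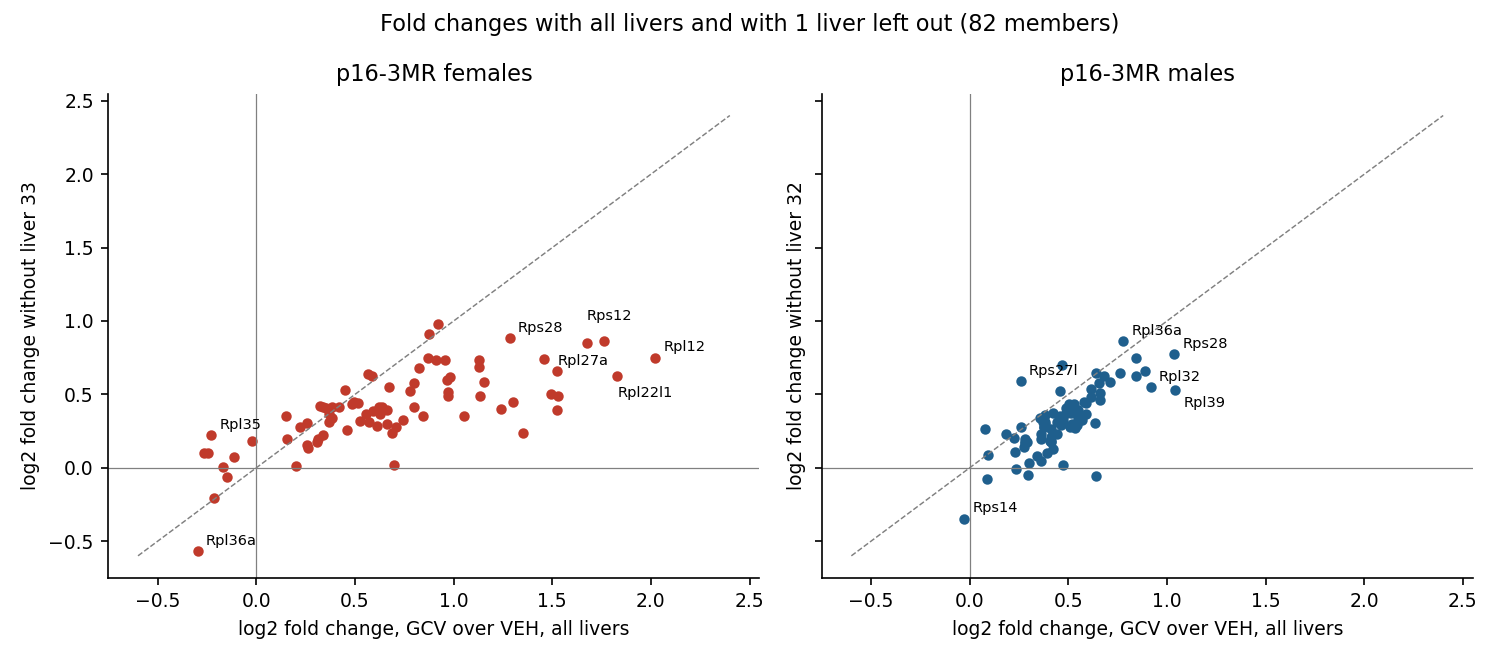
Log2 fold change (GCV over VEH) of 82 members in p16-3MR females (left) and males (right), with all livers on the horizontal axis and without liver 33 (females) or liver 32 (males) on the vertical axis. The dashed line marks equal values, and Rpl3l, with 5 counts in all, is left out. Most points lie above 0 on both axes, and the largest female values, such as Rpl12 at 2.02, lie far below the line (0.75 without liver 33).

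In p16-3MR males, 82 of the 83 members had a higher estimate on GCV, and none passed the test. The exception was Rps14, with a log2 fold change of -0.03 ± 0.35 (-0.35 without liver 32). The median of the members was 0.47 and that of all genes 0.04. All 50 large subunit members (median 0.43) and 32 of 33 small subunit members (median 0.52) were above 0. edgeR called 0 of 83 members and 0% of all genes, with every member at an adjusted p of 1. An unadjusted p under 0.05 was found for 5 members (Rpl32, Rpl36a, Rpl39, Rps7 and Rps28), all with a higher level, and for 1.1% of all genes in that direction. With 1 male left out, there were 0 such members without liver 26 (95 of all genes) and 1 without liver 32 (179). There were 2 without liver 30 or 24 (213 and 1370), and 3 without liver 34 or 25 (474 and 110). With 1 female left out the number ran from 1 (without liver 27) to 10 (without liver 33). All 3 GCV males lay above all 3 VEH males for 47 members, for 3.57% of all genes and for 3.81% of the genes with a mean of at least 10 counts. DESeq2 and limma-voom called no member either, and 5 and 145 of all genes.

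Liver 32 held the highest value of 31 members. Without it, 77 members had a higher estimate (Rpl3, Rpl10a, Rps4x and Rps9 turned to lower, and Rpl3l went to 0), the median was 0.31, and the groups did not overlap for 49 members, as for 7.60% of all genes. Without both 24 and 32, the livers with few hepatocyte counts, 80 members were higher with a median of 0.39, and none of them had an unadjusted p under 0.05. The members' share of counts was highest in liver 32, at 3.92%. Of the 10 macrophage markers, 9 had a higher estimate on GCV in males and 0 in females. Without liver 32, 0 of the 10 had a higher estimate in males (median 0.95 with that liver and -0.37 without it). Their sums were 1504, 5184 and 300 CPM in GCV males, 2818, 460 and 229 CPM in VEH males, 481, 343 and 162 CPM in GCV females and 444, 1277 and 1179 CPM in VEH females. None of these genes was called. The T and NK cell markers had higher estimates for 7 of 9 genes in males, the B and plasma cell markers for 6 of 6, the proliferation markers for 4 of 4, the stellate cell markers for 3 of 6 and the endothelial markers for 1 of 6. Without liver 32 these counts were 6, 5, 2, 1 and 0. Hepatocyte markers had higher estimates for 3 of 9 genes in males (median -0.19), but for 8 of 9 without liver 32 (median 0.22). In females 5 of 9 were higher with and without liver 33 (medians 0.14 and 0.08). The 5 cholangiocyte markers, of the bile duct lining, had higher estimates for 5 in males and 4 in females. Their sums were 111, 143 and 86 CPM in GCV males and 64, 51 and 50 CPM in VEH males, without overlap. In females the sums were 142, 42 and 37 CPM on GCV and 35, 98 and 37 CPM on VEH, with Krt7 and Krt19 each at 0 in 1 liver. In males most of each sum was Spp1, at 90.9, 131 and 54.0 CPM on GCV and 55.9, 39.5 and 40.3 CPM on VEH, which overlapped. Krt19 was at 16.9 CPM in liver 34 and at most 2.35 CPM in any other liver. Erythroid markers had higher estimates for 4 of 5 genes in each sex, but for 0 of 5 in females without liver 33 (median -1.95), with sums of 39 to 2292 CPM in GCV livers and 248 to 1311 CPM in VEH livers. The part of these cell types in the members' values was not tested. Neutrophil markers had higher estimates for 6 of 6 genes in males (median 1.88, and 0.42 with 5 of 6 higher without liver 32) and lower ones for 5 of 6 in females (median -0.88, and -2.24 with 6 of 6 lower without liver 33). They reached 518 CPM in liver 32 and 410 CPM in VEH female 28, and Ly6g, which defines that cell, was at 0 in 9 of the 12 livers.

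The largest male difference apart from Rpl3l was in Rpl39, an X-linked protein at the exit of the tunnel through which the new chain leaves. Rpl39 was at 476, 1009 and 457 CPM in GCV males 30, 32 and 34 and at 398, 323 and 223 CPM in VEH males 24, 25 and 26. The groups did not overlap, liver 32 was the highest, and the log2 fold change of 1.04 ± 0.47 was 0.53 without that liver. Rps28, a small subunit protein near the exit of the messenger RNA, was at 185, 310 and 229 CPM on GCV and 123, 131 and 99.3 CPM on VEH in males. In females it was at 268, 402 and 179 CPM on GCV and 101, 114 and 132 CPM on VEH. All GCV livers of either sex thus lay above all VEH livers of either sex. The log2 fold change was 1.04 ± 0.40 in males (0.78 without liver 32) and 1.28 ± 0.40 in females (0.88 without liver 33).

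Rpl32, of the large subunit, was at 321, 577 and 331 CPM in GCV males and 246, 226 and 180 CPM in VEH males. In females it was at 319, 450 and 350 CPM on GCV and 167, 172 and 238 CPM on VEH, so that the GCV livers of both sexes were again above all VEH livers. The log2 fold changes were 0.92 ± 0.41 in males (0.55 without liver 32) and 0.96 ± 0.41 in females. Rps7, another small subunit protein that can bind Mdm2, was at 224, 275 and 259 CPM in GCV males and 125, 168 and 128 CPM in VEH males. In females its levels were 267, 278 and 182 CPM on GCV and 104, 124 and 159 CPM on VEH. All GCV livers were again above all VEH livers, and the log2 fold change was 0.85 ± 0.36 in males and 0.91 ± 0.37 in females, or 0.75 and 0.74 without livers 32 and 33. Rps15a had a log2 fold change of 0.89 ± 0.42 in males and 1.46 ± 0.43 in females (0.74 without liver 33), from GCV levels of 52.0 to 169 CPM and VEH levels of 26.7 to 42.2 CPM. Rps15a had 4138 counts and its 7 named pseudogenes had 5456, so that its level depends on how reads were split between them. Rps20 was at 221, 258 and 223 CPM in GCV males and 150, 147 and 117 CPM in VEH males, with a log2 fold change of 0.76 ± 0.36. Rps16, of the small subunit, was at 300, 304 and 241 CPM in GCV females and 132, 158 and 172 CPM in VEH females. In males it was at 270, 344 and 311 CPM on GCV and 195, 209 and 162 CPM on VEH. Its log2 fold changes were 0.87 ± 0.35 and 0.71 ± 0.35, and liver 33 was not apart from the other GCV females.

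The groups did not overlap, with GCV higher, in both sexes for 33 members, 39.8% of the 83, and for 125 of all genes (0.575%). A positive estimate in both sexes was found for 73 members. Rpl32, Rps7 and Rps28 had an unadjusted p under 0.05 in each sex. The livers of the sexes are different animals, but they were scaled and fitted together.

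**Figure D3:**
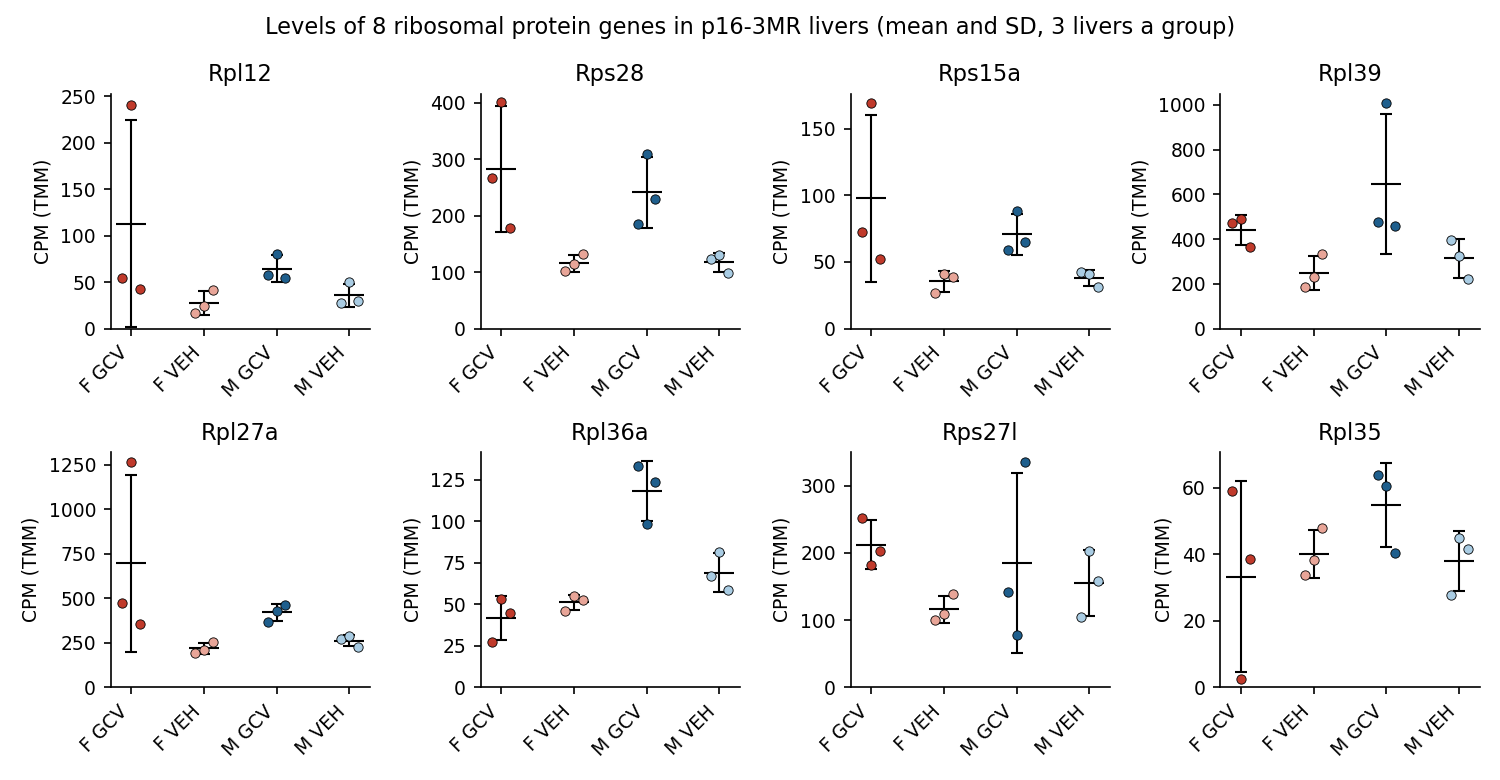
TMM CPM of Rpl12, Rps28, Rps15a, Rpl39, Rpl27a, Rpl36a, Rps27l and Rpl35 in each p16-3MR liver, with a bar for the mean and whiskers for the SD of each group of 3 livers. Rps28 and Rps15a have every GCV liver above every VEH liver, Rpl36a has no overlap in males and overlaps in females, and Rpl35 is at 2.32 CPM in liver 33.

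The difference between the female and the male response was tested directly and was not called for any member, nor for any of the 21755 genes (0%) by edgeR. DESeq2 and limma-voom called 3 and 1 genes and no member. The female response was the larger for 55 of 83 members, with a median difference of 0.19 on the log2 scale, and the lowest adjusted p of a member was 0.976. Without liver 33 it was larger for 32 members, with a median of -0.08. By library size alone it was larger for 4 members, with a median of -0.68, close to that of all genes at -0.66. One member had an unadjusted p under 0.05, the X-linked Rpl36a, at -1.08 ± 0.47. Rpl36a was at 27.4, 53.3 and 44.4 CPM in GCV females and 45.8, 54.7 and 52.5 CPM in VEH females, so that these groups overlapped. In males it was at 133, 98.3 and 124 CPM on GCV and 66.7, 81.6 and 58.6 CPM on VEH, with no overlap. The log2 fold change was -0.30 ± 0.33 in females (-0.57 without liver 33) and 0.78 ± 0.33 in males. Rpl36a had 5611 counts in the table and its named pseudogenes, of which there are 2, had 19898, so that its level depends on how reads were split between them.

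Among VEH livers, females had the lower estimate for 79 of the 83 members, the exceptions being Rpl35, Rpl3l, Rpl7l1 and Rplp2. The median female minus male log2 difference was -0.20, with -0.05 over all genes. Leaving out 1 liver moved it to between -0.33 (without VEH female 29) and -0.13 (without VEH male 25), and the number of members higher in females to between 1 (without VEH female 29) and 15 (without VEH female 27). edgeR called no member, and none had an unadjusted p under 0.05, while 0.12% of all genes (26) were called. DESeq2 and limma-voom called 99 and 154 genes and again no member. All females lay below all males for 5 members, Rpl10a, Rpl28, Rpl36, Rpl36a and Rps12 (6.02% of them), and for 5.13% of all genes. Rps12 had the largest such difference, with 32.4, 54.0 and 51.5 CPM in females and 94.2, 69.1 and 66.3 CPM in males (-0.74 ± 0.47). In the same livers macrophage markers were lower in females for 9 of 10 genes (median -0.42) and erythroid markers for 5 of 5 (median -0.17). B and plasma cell markers were higher for 5 of 6 (median 1.86, 2 with an unadjusted p under 0.05). Neutrophil markers were higher for 5 of 6 (median 1.20). None of these markers was called, and their part in the members' values was not tested.

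The stalk proteins of the large subunit, Rplp0, Rplp1 and Rplp2, recruit elongation factors. Rplp1 was at 229, 350 and 171 CPM in GCV females and 128, 140 and 162 CPM in VEH females, a log2 fold change of 0.80 ± 0.39 that was 0.41 without liver 33. It was at 206, 294 and 206 CPM in GCV males and 178, 176 and 126 CPM in VEH males (0.56 ± 0.39, and 0.33 without liver 32). Rplp0, which anchors the stalk, overlapped between the female groups (0.15 ± 0.37) and did not overlap in males, at 333, 443 and 306 CPM on GCV and 281, 273 and 242 CPM on VEH (0.44 ± 0.37, and 0.23 without liver 32). Rplp2 was low in this table, at 7.55 to 31.8 CPM, with differences of 0.15 ± 0.50 in females and 0.34 ± 0.49 in males (0.35 without liver 33 and 0.08 without liver 32) and overlapping groups.

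The 4 X-linked members, Rpl10, Rpl36a, Rpl39 and Rps4x, were at 0.51 to 1.04 in males and at -0.30 to 0.83 in females on the log2 scale. Rpl10, a late-joining protein of the large subunit, was at 134, 37.8 and 161 CPM in GCV females and 106, 136 and 154 CPM in VEH females, the lowest value being liver 33. Rps4x was at 160, 76.5 and 155 CPM on GCV and 125, 125 and 148 CPM on VEH in females, also lowest in liver 33. In males Rps4x was at 190, 430 and 126 CPM on GCV and 209, 151 and 120 CPM on VEH, and its log2 fold change of 0.64 ± 0.48 was -0.05 without liver 32. Rpl35, near the tunnel exit, had 3 counts in liver 33 (2.32 CPM), and 27.8 to 63.7 CPM elsewhere.

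Of the 6 paralogs or extra copies in the table, Rpl3l, the form of Rpl3 in striated muscle, had 1 count in liver 29, 4 in liver 32 and 0 in the other 10. The low numbers give it no usable fold change, although its fitted value enters the counts above. Rpl3 itself was at 121 to 193 CPM in females and 160 to 356 CPM in males, with log2 fold changes of -0.15 ± 0.39 (-0.06 without liver 33) and 0.30 ± 0.39 (-0.05 without liver 32). Rpl22 was higher on GCV without overlap in females (0.97 ± 0.40, and 0.60 without liver 33) and males (0.62 ± 0.40), and Rpl22l1 in females. Rps27l, a target of p53, was at 252, 182 and 204 CPM in GCV females and 100, 109 and 138 CPM in VEH females, a log2 fold change of 0.87 ± 0.50 that was 0.91 without liver 33. In males Rps27l overlapped, at 141, 78.1 and 336 CPM on GCV and 104, 202 and 158 CPM on VEH (0.26 ± 0.49, and 0.59 without liver 32). Its partner Rps27 overlapped in both sexes (1.35 ± 0.55 and 0.54 ± 0.54), as did the copy Rps27rt (0.20 ± 0.37 and 0.47 ± 0.37). Without liver 33 their female values were 0.24 and 0.01, and without liver 32 their male values were 0.27 and 0.02. Rpl36al, unlike its X-linked partner Rpl36a, was higher on GCV in females without overlap, at 200, 121 and 120 CPM against 70.0, 87.0 and 76.0 CPM (0.92 ± 0.41), and overlapped in males (0.47 ± 0.40). Rpl7l1 was at 37.8 to 46.8 CPM in GCV livers other than liver 33, where it was at 8.50 CPM, and at 32.2 to 44.4 CPM in VEH livers. Its partner Rpl7 did not overlap in either sex (0.69 ± 0.40 and 0.36 ± 0.40, and 0.23 in each sex without livers 33 and 32). Rpl26 and Rps3a1 were also higher on GCV without overlap in both sexes.

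Among members with roles beyond the ribosome, Rps6, the substrate of the kinases downstream of mTORC1, was at 400, 484 and 340 CPM in GCV females and 248, 293 and 311 CPM in VEH females. In males it was at 461, 525 and 457 CPM on GCV and 347, 363 and 302 CPM on VEH. The groups were apart in each sex, and the log2 fold changes were 0.52 ± 0.38 (0.32 without liver 33) and 0.51 ± 0.38. Rpl5, the partner of Rpl11, was at 0.66 ± 0.33 in females (0.39 without liver 33) and 0.23 ± 0.32 in males (0.11 without liver 32). Rps19, mutated in Diamond-Blackfan anaemia, overlapped in both sexes (0.64 ± 0.37 and 0.36 ± 0.37), as did Rps3, which also acts in DNA repair (0.70 ± 0.45 and 0.41 ± 0.44). Without liver 33 the female values of Rps19 and Rps3 were 0.42 and 0.02, and without liver 32 the male values were 0.05 and 0.18. Rps27a, made as a fusion with ubiquitin, was at 0.32 ± 0.37 and 0.36 ± 0.37 (0.20 without liver 32). Rps14 was the sole member with a lower estimate on GCV in both sexes, at 93.3, 70.3 and 72.5 CPM against 78.5, 86.7 and 109 CPM in females and 103, 154 and 83.8 CPM against 132, 128 and 87.4 CPM in males, and its groups overlapped. Rps19bp1, which is no ribosomal protein, was at 4.96 to 11.6 CPM, with overlapping groups in both sexes.

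By mean CPM, which is not divided by length and so does not order the genes by number of molecules, the highest members were Rpl4, Rpl13a, Rps24, Rpl23 and Rpl39. Rpl4, which lines the exit tunnel, averaged 771 CPM, and was at 899, 943 and 945 CPM in GCV males and 695, 762 and 622 CPM in VEH males (0.42 ± 0.42). In females its groups overlapped (0.35 ± 0.42). Rps24 was at 539, 1053 and 392 CPM in GCV females and 252, 295 and 343 CPM in VEH females (1.15 ± 0.47, and 0.58 without liver 33), and did not overlap in males either (0.57 ± 0.46, and 0.33 without liver 32). Rpl23 was higher on GCV without overlap in each sex (0.52 ± 0.39 and 0.46 ± 0.39, the latter 0.29 without liver 32).

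Genes that act with the members were taken as lists, and none of their genes was called in either sex. Rpsa, Fau and Rack1 encode ribosomal proteins that the rule misses by name, and each had a higher estimate on GCV in both sexes. Rack1 was at 0.68 ± 0.41 in females (0.25 without liver 33) and 0.46 ± 0.40 in males (0.16 without liver 32), and Fau at 0.61 ± 0.36 in females. Rpsa was at 1.65 ± 0.57 in females, and at 566, 2021 and 447 CPM on GCV against 296, 292 and 380 CPM on VEH, and without liver 33 it was at 0.59. Of 20 other TOP messages, for translation factors and their like, 11 were higher in females (median 0.07, and 0.16 without liver 33) and 18 in males (median 0.31, and 0.17 without liver 32). Among them Gas5, a TOP transcript that hosts small nucleolar RNAs, was at 1.57 ± 0.43 in females (0.84 without liver 33), and Eef1a1 and Eef2, the main elongation factors, were at -0.41 ± 0.58 (-0.24 without liver 33) and -0.53 ± 0.43. Of 16 genes of mTORC1 and TOP control, 9 were higher in females (median 0.12, but 8 and 0.0068 without liver 33) and 6 in males (median -0.13), with Larp1 at 0.36 ± 0.42 (-0.20 without liver 33) and -0.20 ± 0.42 (-0.01 without liver 32). Of 7 chaperones dedicated to single ribosomal proteins, 5 were higher in each sex, and Grwd1, which carries Rpl3, and Pdcd2, which carries Rps2, were at 1.36 ± 0.46 and 1.17 ± 0.36 in females, or 0.76 and 0.80 without liver 33. Of the 4 genes of the p53 checkpoint that senses ribosomal proteins, 2 were higher in females and 3 in males, and of 5 transcription factors of these promoters 3 and 1. Without liver 32, 15 of the TOP messages, 7 of the chaperones and 0 of the checkpoint genes and transcription factors were higher in males. Without liver 33, 12 of the TOP messages, 7 of the chaperones, 2 of the checkpoint genes and 2 of the transcription factors were higher in females. An unadjusted p under 0.05 was found in females for Rpsa, Gas5, Rheb, Rps6kb2, Grwd1 and Pdcd2, all higher, and for Sp1 and Gabpa, both lower, and in males for Fau (0.96 ± 0.36). Of these, Rps6kb2, a kinase of Rps6, went from 1.43 to 0.25 without liver 33. In wild-type livers, 3 of the 11 other TOP messages with an unambiguous label had a higher estimate on GCV in each sex, with none called.

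In wild-type livers the members were tight within and between groups. They took 0.979 to 1.09% of counts in females and 0.824 to 0.917% in males. Of the 28 members, 1 had a higher estimate on GCV in females (Rps16, 0.01) and 10 in males, with medians of -0.07 and -0.03. These medians were 0.00 over all genes. Leaving out 1 liver moved the female median to between -0.10 and -0.06, with 1 to 4 members higher (4 without GCV female 5). The male median moved to between -0.08 with 3 members higher (without GCV male 3) and -0.0048 with 12 higher (without GCV male 2). edgeR called no member in females, where 0.00791% of all genes (1) were called, and none in males, where 0% were. No member had an unadjusted p under 0.05 in either sex, and DESeq2 and limma-voom called no member in either sex. The median standard error of a member's log2 fold change was 0.10 here and 0.38 in p16-3MR, so that the tests were far less precise in p16-3MR mice, and a member not called there is not shown to be unchanged. The log2 fold changes ran from -0.25 to 0.01 in females and from -0.19 to 0.25 in males. All GCV females lay below all VEH females for 7 members (25% of them; 4.95% of all genes), namely Rpl7a, Rpl10a, Rpl13a, Rpl23a, Rpl31, Rpl38 and Rps4x, and the reverse order held for none. In males Rpl22 alone was lower on GCV without overlap, at 209, 207 and 219 CPM against 246, 250 and 226 CPM (-0.19 ± 0.10), as 4.37% of all genes were. Erythroid markers had higher estimates on GCV for 4 of 4 genes in wild-type females (median 0.51) and 3 of 4 in males (median 0.66). In each sex 3 of them had an unadjusted p under 0.05, and none was called. Macrophage markers had lower estimates for 6 of 7 genes in females (median -0.17) and 3 of 7 in males (median 0.03). The part of these markers in the members' values was not tested.

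The 5 largest wild-type female differences were in Rps19bp1, Rpl10a, Rpl22l1, Rpl23a and Rps20. Rpl10a was at 228, 241 and 228 CPM in GCV females 4, 5 and 6 and at 248, 274 and 260 CPM in VEH females (-0.17 ± 0.10). Rpl23a was at 290, 282 and 315 CPM on GCV and 316, 341 and 316 CPM on VEH (-0.13 ± 0.10), with livers of the groups nearly level. Rps20 and Rpl22l1 overlapped (-0.13 ± 0.12 and -0.14 ± 0.13), as did Rps19bp1 (-0.25 ± 0.14). With 1 liver left out these values ran from -0.20 (without VEH female 4) to -0.08 (without GCV female 5) for Rps20, from -0.23 (without GCV female 5) to -0.07 (without GCV female 4) for Rpl22l1 and from -0.36 (without VEH female 5) to -0.11 (without VEH female 4) for Rps19bp1. Among the largest in males were Rpl7l1 (0.25 ± 0.16), Rpl22, Rpl22l1 (0.16 ± 0.13) and Rplp2 (-0.11 ± 0.10). Without GCV male 3 Rpl22l1 was at 0.03, without GCV male 2 at 0.27 and Rplp2 at -0.05, and without VEH male 2 Rpl7l1 was at 0.14. Rps16, at 0.87 in p16-3MR females, was at 386, 431 and 458 CPM in wild-type GCV females and 393, 429 and 442 CPM in VEH females. The responses of the genotypes were not tested against each other.

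**Figure D4:**
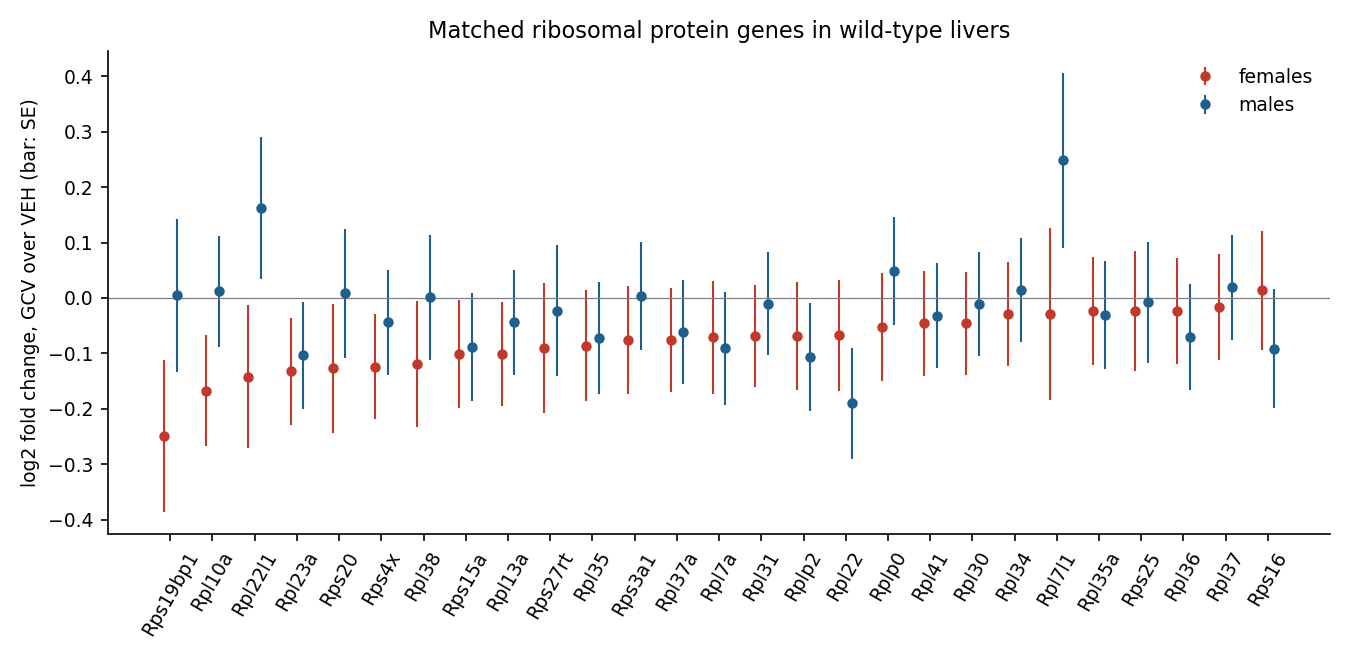
Log2 fold change (GCV over VEH) of members with an unambiguous label in wild-type females and males, in the order of the female values, with bars for the standard error. The values run from -0.25 (Rps19bp1 in females) to 0.25 (Rpl7l1 in males), and most bars cross or come near 0.

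In wild-type mice the female minus male difference in response was positive for 7 of 28 members (median -0.04), for 14 without GCV male 3 (median -0.0018) and for 4 without GCV male 2 (median -0.07). No member was called by edgeR, DESeq2 or limma-voom, or had an unadjusted p under 0.05, against edgeR calls for 0.00791% of all genes (1). Among wild-type VEH livers, females had the lower estimate for 24 of 28 members, with a median of -0.09 and 0.02 over all genes. edgeR called none of the members (lowest adjusted p = 0.123), whereas 3.82% of all genes (483) were called. An unadjusted p under 0.05 was found for Rpl35a, at 335, 318 and 358 CPM in females and 420, 402 and 411 CPM in males (-0.29 ± 0.10), and for Rplp0, at 338, 362 and 317 CPM and 404, 409 and 400 CPM (-0.25 ± 0.10). DESeq2 called Rpl35a (-0.30, adjusted p = 0.0233) and 4.49% of all genes. All females lay below all males for 8 members (28.6% of them), Rpl7a, Rpl23a, Rpl34, Rpl35, Rpl35a, Rpl38, Rplp0 and Rps25, and for 8.69% of all genes. The direction depended on the scaling: by library size alone all genes moved to a median of 0.36 and the members to 0.25, all 28 were higher in females, and Rpl30, Rpl37a and Rpl7l1 were called, with 14.2% of all genes. Relative to all genes the members were then at -0.11, as under TMM.

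Levels of the same genes in both genotypes are given as a description of 2 tables normalized separately. The wild-type mean was above the p16-3MR mean for 25 of 28 members, as for 54.9% of the 6557 genes matched in both tables with a mean of at least 10 counts in each. The median ratio was 2.50 for the members and 1.08 for those genes. The wild-type mean was more than 2-fold higher for 15 members and for 16.8% of those genes. Rplp2 was at 15.5 CPM in p16-3MR and 521 CPM in wild-type mice (33.6-fold), and Rpl41, which encodes a very short peptide, at 106 and 1082 CPM (10.2-fold). The ratio was 7.45 for Rpl35, 6.72 for Rps19bp1, 4.76 for Rps15a and 4.71 for Rpl23a. The lowest were 0.72 for Rpl22, 0.85 for Rpl13a and 0.98 for Rpl7a. Every wild-type liver lay above all 12 p16-3MR livers for 14 members and for 12.8% of the matched genes, and the reverse held for none of the members and for 3.11% of those genes. Rpl38 and Rpl13a also had high wild-type means, at 545 and 455 CPM. Genotype, age and batch, and any change in how reads were assigned to genes, cannot be told apart in these ratios.

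**Figure D5:**
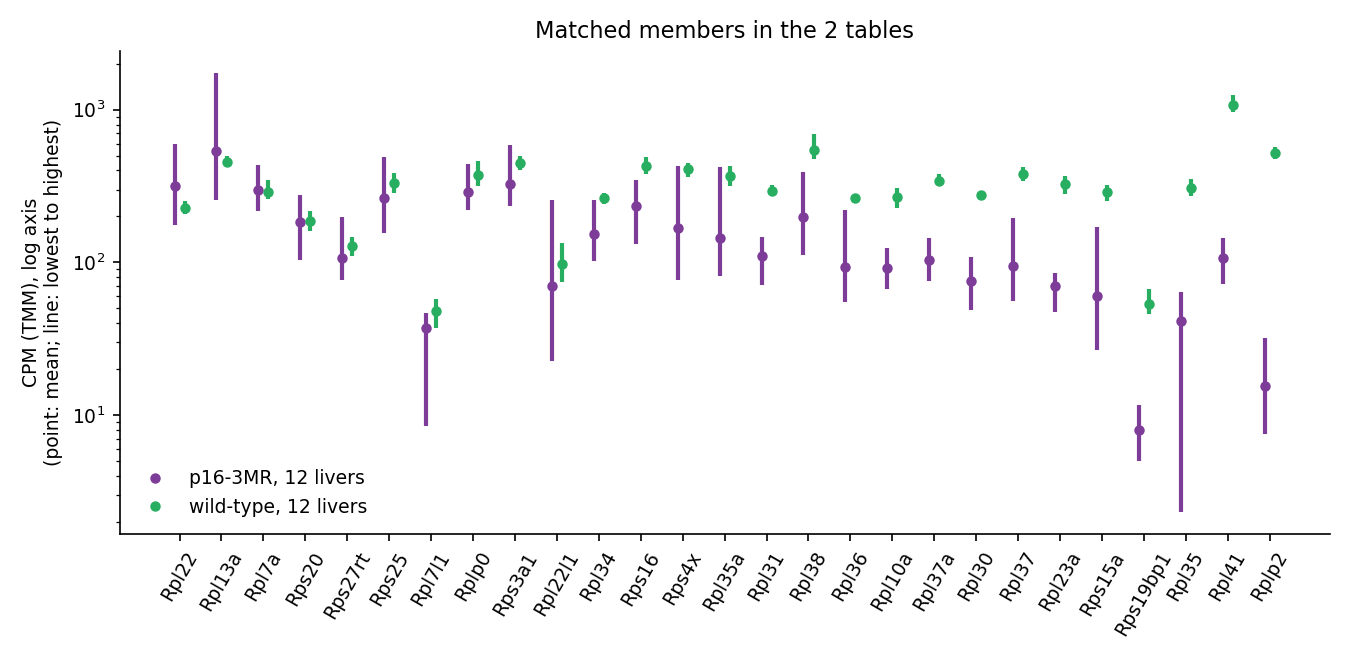
TMM CPM (log axis) of members found in both the p16-3MR and the wild-type table, in the order of the ratio of their means; points are means of 12 livers and lines run from the lowest to the highest liver. The wild-type mean is the higher for most members, and Rplp2 (15.5 and 521 CPM) and Rpl41 (106 and 1082 CPM) are farthest apart.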

How the data were processed

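Smart-3SEQ libraries of 24 mouse livers were trimmed by the authors with TrimGalore 0.6.10, checked with FastQC 0.11.9 and quantified with Salmon 1.10.3 and tximport; genes with fewer than 3 reads were excluded, and the processing notes name mm10. The values the authors deposited are expected counts (estimated counts) per gene, 1 table per genotype, already whole numbers and not normalized. They were rounded as read, and no column was left out. Identifiers of the p16-3MR table were matched to GENCODE M21 (57 had no symbol). Of the wild-type labels, 10496 fitted one symbol, 2067 several and 80 none. Salmon splits reads between similar sequences: 48 members have at least 1 of 141 named pseudogenes in the p16-3MR table. Per the methods, Salmon used a ready-made mouse transcriptome index with decoys and corrections for GC and sequence bias; its strand setting was not given in the sources used here.

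For each genotype, edgeR 4.0.16 (R 4.3.3; TMM, quasi-likelihood) was fitted to all genes of the 12 livers with 1 mean per group and no filter, and p-values were adjusted by Benjamini-Hochberg over all genes of the table (call: adjusted p under 0.05). Every adjusted p in the report is from edgeR unless DESeq2 is named. Log2 CPM used a prior count of 2. Standard errors were calculated back from each edgeR test, as the absolute log2 fold change over the square root of its F statistic. Livers are labelled biological replicates. DESeq2 1.42.0, limma 3.58.1 (voom), other scalings, filterByExpr, a replicate block in wild-type mice and leaving out each liver were alternatives; leaving out livers 32 and 33, or 24 and 32, was added after the data were seen. Shares have Wilson intervals (scipy 1.17.1). The fits were tested on simulated data. Members named with values were the 8 with the largest fold change in p16-3MR per sex, the 5 in wild-type per sex, the 5 with the highest mean CPM per table, and fixed lists (stalk, X-linked, paralogs with partners, known roles); others named were chosen after their values were seen. Rpl3l was left out when the 8 per sex were taken. The members and lists were chosen with earlier results of these data known. Marker lists of 10 cell types or states were used as values beside results. No protein sequences were used. Some genes are not reported here; they are included in the counts over the members.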

Additional observations from a re-analysis of the deposited data

How the results depend on the processing

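The median log2 fold change of the members moved by less than 1 SD between replicates in 180 of 185 alternatives, and the number of members called stayed the same in 182 of 185. These totals include settings that could hardly move a result. A call threshold of 0.1 leaves the median as it was, and many fits leave out a liver outside the comparison. No member was called by the main test, so an unchanged number of calls is weak evidence of stability. The number of members with a positive estimate stayed within 1.5 times in 166 of 185 and moved in 19, most of them with 1 liver left out. The exceptions for the median and the calls were these. With library size as the only scaling, the median was -0.14 in p16-3MR females, -0.68 for the female minus male response in p16-3MR mice, and 0.25 with 3 members called for females against males in wild-type VEH livers. DESeq2 called 3 members in p16-3MR females and 1 between the sexes in wild-type VEH livers. Leaving out 1 liver at a time gave medians from 0.40 (without liver 33) to 0.79 (without liver 35) in p16-3MR females, from 0.31 (without liver 32) to 0.53 in p16-3MR males and from -0.078 (without liver 33) to 0.30 for their difference, and called no member in any comparison. Without livers 32 and 33 together the median was 0.47 in p16-3MR females, 0.34 in males and 0.09 for their difference. The cause was not tested. For the members with the largest differences the estimate kept its sign in 536 alternatives, although none had been called. These members were picked for large estimates in the same counts, so a kept sign gives them no support. Over all 83 members, 6 turned from a lower to a higher estimate in p16-3MR females without liver 33 and 4 from higher to lower in males without liver 32, Rps4x the farthest (0.64 to -0.05).

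In wild-type mice the same replicate numbers occur in GCV and VEH groups. The correlations of same-numbered livers were -0.04, -0.06 and 0.00 in females and 0.20, 0.28 and -0.07 in males. Of the 6 GCV livers, 2, both of them males, correlated best with their own number. With so few livers in a group, these values cannot decide whether the numbers pair the livers. With the replicate block, 0 members were called in females, in males and for the difference between them, the medians were -0.07, -0.02 and -0.03, and the genes called numbered 106, 68 and 79 rather than 1, 0 and 1. No paired analysis was possible in p16-3MR mice because the groups share no replicate numbers, nor between the sexes.
Depth limits Rpl3l most, with 5 counts in all.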
